A study of Mus musculus with 15 samples.

Results

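The 33 genes described here are a list of myelin and mature oligodendrocyte genes. They were picked by name, but with earlier results of these data known. All 33 were found among the 33321 genes of the deposited count table of mouse corpus callosum, the large bundle of myelinated axons between the hemispheres, and all 33 passed the filter on low counts that left 16795 genes. RNA of the whole tissue was sequenced in 15 libraries, 3 in each of 5 groups. LNIO-Ipsil was the injection site of L-NIO, which blocks the nitric oxide synthase of endothelium and serves as a model of white matter stroke, and LPC-Ipsil was the injection site of lysophosphatidylcholine (LPC), a lipid that strips myelin. LNIO-Contra and LPC-Contra were the tissue on the other side of the same 2 models, and Sham-Ipsil was the site of a saline injection in sham-operated mice. Tissue of both sides was collected on day 4 after the injury. No day is named for sham tissue, and strain, age, sex and dose are not given in the labels. Whether a group's 3 libraries are 3 different mice is not in the labels, so p-values measure the spread between these libraries, which may be technical.

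Oligodendrocytes wrap axons in a spiral of membrane that is pressed into compact myelin by basic proteins on its inner faces. The membrane is rich in galactolipids and in raft and tight junction proteins, and adhesion molecules fix it to the axon and at the borders of the nodes. In the mature animal the messages for these proteins are abundant in white matter, and some, Mbp among them, are carried out into the processes. LPC dissolves myelin and harms the cells that hold it, while precursor cells can later make new myelin. In RNA of whole tissue, fewer oligodendrocytes and less RNA in each one cannot be told apart.

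The members ranged widely in level, and RNA of whole tissue does not show which cells made them. Per length, in the deposited FPKM values averaged over the 15 libraries, Mbp stood at 754 ± 134 FPKM (SD, n = 15), Mobp at 472 ± 77.7 FPKM, Mal at 361 ± 109 FPKM, Cldn11 at 341 ± 93.1 FPKM and Cnp at 279 ± 74.1 FPKM. The order of Mobp and Mal, and that of Mal and Cldn11, was not the same in every library. Cldn11 exceeded Cnp in every library, though their spreads over libraries overlap. At the low end stood Klk6 at 6.39 ± 2.66 FPKM, Pllp at 6.35 ± 1.86 FPKM and Ninj2 at 2.87 ± 1.67 FPKM. Markers of Schwann cells, the myelinating cells of peripheral nerve, summed to between 18.9 and 32.7 CPM (a library's counts put on a common total) in every library, a trace beside Mbp at 5158 to 9633 CPM. CPM here are scaled by library total and by TMM factors, edgeR's correction for composition.

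Stretches upstream of 4 members are shown because Sirt2 was the 1 member called in any comparison, Klk6 had the largest fold change, and Cnp and Mag, with Hapln2, hold both motifs searched. Only starts with a match are printed, and the other start of Klk6 and 1 of the 3 starts of Mag hold neither motif. Each is the 250 bases before a RefSeq transcript start (GRCm38.p6; Cnp chr11:100574689-100574938, plus strand; Mag chr7:30914923-30915172, minus strand; Sirt2 chr7:28766502-28766751, plus strand; Klk6 chr7:43824294-43824543, plus strand), written 5′ to 3′ on the gene's strand. Capitals mark matches on either strand to ACAAAG or ACAATG, cores bound by SOX factors such as Sox10, and to CTGGCAC or CTGGTAC, letters of the motif of Myrf, the myelin regulatory factor.
Cnp: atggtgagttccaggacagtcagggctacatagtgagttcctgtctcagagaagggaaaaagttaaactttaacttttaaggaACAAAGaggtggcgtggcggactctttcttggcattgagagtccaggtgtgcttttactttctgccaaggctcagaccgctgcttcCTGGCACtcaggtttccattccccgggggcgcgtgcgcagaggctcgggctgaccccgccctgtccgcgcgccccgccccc
Mag: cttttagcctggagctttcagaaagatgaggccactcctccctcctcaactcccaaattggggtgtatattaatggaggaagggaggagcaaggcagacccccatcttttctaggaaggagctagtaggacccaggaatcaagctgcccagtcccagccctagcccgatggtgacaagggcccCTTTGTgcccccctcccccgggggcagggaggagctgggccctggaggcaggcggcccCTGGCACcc
Sirt2: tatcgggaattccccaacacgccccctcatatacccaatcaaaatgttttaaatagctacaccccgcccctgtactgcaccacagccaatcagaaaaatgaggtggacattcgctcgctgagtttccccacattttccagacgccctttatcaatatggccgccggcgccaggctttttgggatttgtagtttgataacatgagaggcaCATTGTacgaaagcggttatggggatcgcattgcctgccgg
Klk6: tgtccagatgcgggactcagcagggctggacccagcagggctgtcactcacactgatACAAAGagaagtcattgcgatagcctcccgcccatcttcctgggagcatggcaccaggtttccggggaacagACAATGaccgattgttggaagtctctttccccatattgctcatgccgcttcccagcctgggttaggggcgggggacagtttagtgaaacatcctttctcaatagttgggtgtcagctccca
Of the 33 members 27 had an entry in the RefSeq table, with 37 starts between them, some of which overlap. Counted by gene, the SOX letters were present before a start of 14 of 27 members (51.9%), against 28.2% of 27025 genes, and the Myrf letters of 4 of 27 (14.8%), against 6.79%. A match describes letters only and is not a binding site.

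The libraries differed in the level of the whole list more than the groups did. Members took 1.51%, 1.95% and 1.82% of counts in the LNIO-Ipsil libraries (replicates 1, 2 and 3), 1.76%, 1.83% and 2.71% in LPC-Ipsil, 1.89%, 2.0% and 2.27% in LNIO-Contra, 1.85%, 2.2% and 1.94% in LPC-Contra, and 2.23%, 1.46% and 1.52% in Sham-Ipsil. As group means this was 1.76 ± 0.226% in LNIO-Ipsil, 2.10 ± 0.529% in LPC-Ipsil, 2.05 ± 0.196% in LNIO-Contra, 2.0 ± 0.182% in LPC-Contra and 1.74 ± 0.428% in Sham-Ipsil (SD, n = 3 each). The high libraries were LPC-Ipsil replicate 3, LNIO-Contra replicate 3, Sham-Ipsil replicate 1 and LPC-Contra replicate 2, and they come from 4 different groups. Sham-Ipsil replicates 2 and 3 and LNIO-Ipsil replicate 1 were the lowest.

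**Figure D1:**
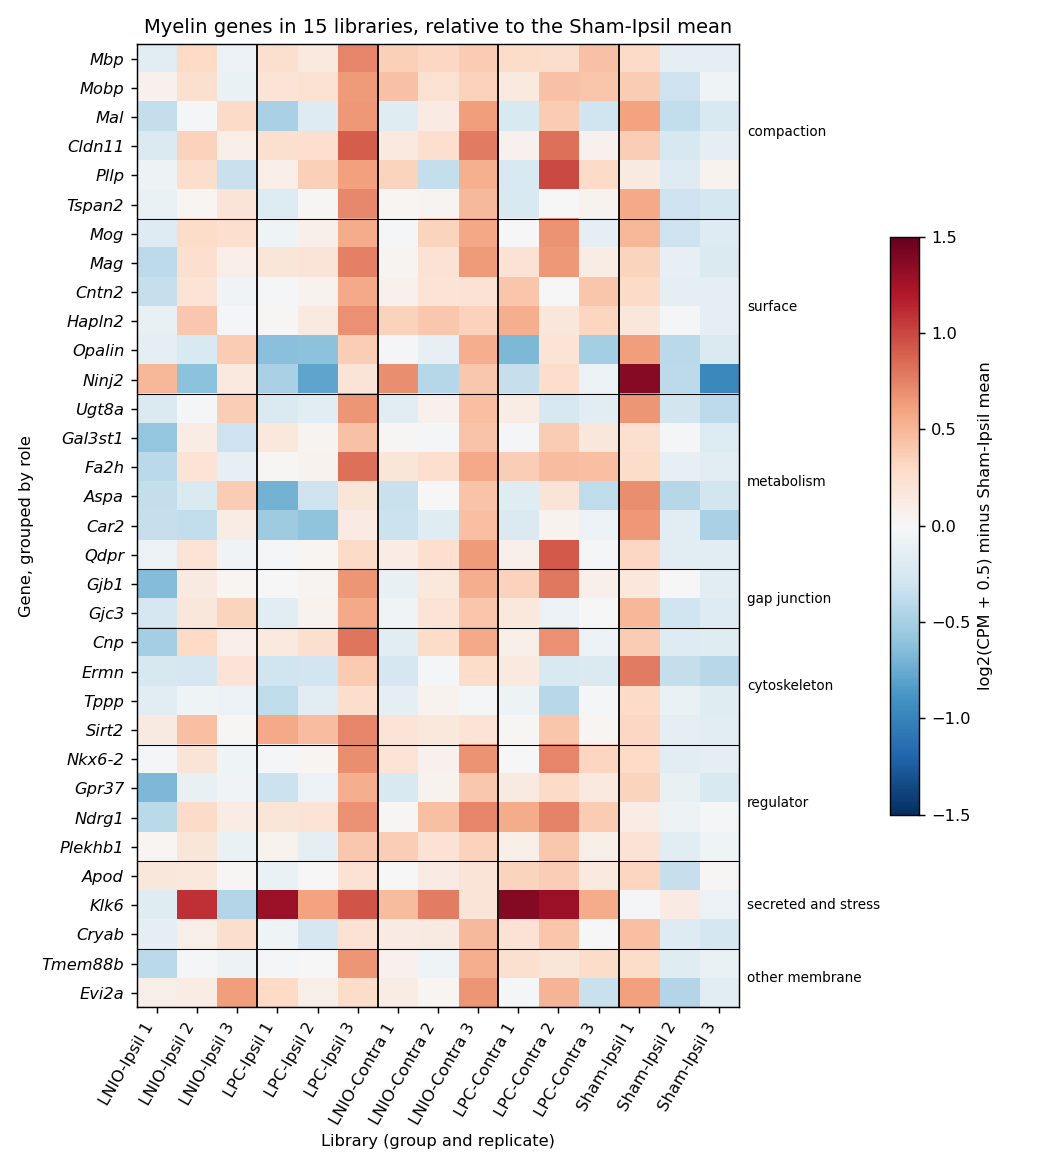
Each row is a member and each column a library, ordered by group; colour gives the log2 CPM of the member minus its mean over the 3 Sham-Ipsil libraries. LPC-Ipsil replicate 3 lies above the sham mean for 33 members and Sham-Ipsil replicate 1 for 32, while Sham-Ipsil replicates 2 and 3 lie above it for 1 and 2.

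In some libraries most members stood on the same side of the Sham-Ipsil mean, and in others they were split. LPC-Ipsil replicate 3 was above the Sham-Ipsil mean for 33 of 33 members (median 0.62 on the log2 scale), whereas LPC-Ipsil replicates 1 and 2 were above it for 15 and 21 members (medians -0.01 and 0.04). Sham-Ipsil replicate 1 was itself above its group's mean for 32 members, and replicates 2 and 3 for 1 and 2. That mean is made of these same libraries, so the sham counts depend on each other. LPC-Ipsil replicate 3 held the highest value of 16 members, and Sham-Ipsil replicate 1 that of 7, namely Opalin, Ninj2, Ugt8a, Aspa, Car2, Ermn and Tppp. LPC-Contra replicate 2 also held the highest value of 7 members, while LNIO-Ipsil replicate 1 held the lowest value of 10. Comparisons below are read against this spread.

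Other cell types varied between the same libraries, and their part in the members' levels was not tested. The summed CPM of 6 microglia markers was 646, 995 and 846 in LNIO-Ipsil, 2513, 1712 and 402 in LPC-Ipsil, 285 to 359 in LNIO-Contra, 329.8 to 459 in LPC-Contra and 293 to 346 in Sham-Ipsil. LPC-Ipsil replicate 3, the library with the highest myelin gene level, was thus the LPC-Ipsil library close to sham in microglia markers. Its summed damage-associated microglia markers were 84.4 CPM, against 1127 and 649 CPM in LPC-Ipsil replicates 1 and 2 and 96.8 to 128 CPM in Sham-Ipsil. The label of that library says LPC injection site, and it is kept under that label, with values given without it wherever it decides a statement. Striatal neuron markers summed to 219.6 CPM in Sham-Ipsil replicate 1, against 904 and 1397 CPM in Sham-Ipsil replicates 2 and 3, so the sham library richest in myelin messages was the poorest in these. LNIO-Ipsil replicate 1, next poorest in them at 284 CPM, instead had the lowest median of the members (-0.19, log2 against the sham mean). Across all 15 libraries striatal neuron markers ran from 219.6 to 1654 CPM, choroid plexus markers from 28 to 1350.1 CPM and neuron markers from 3289 to 5703 CPM.

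**Figure D2:**
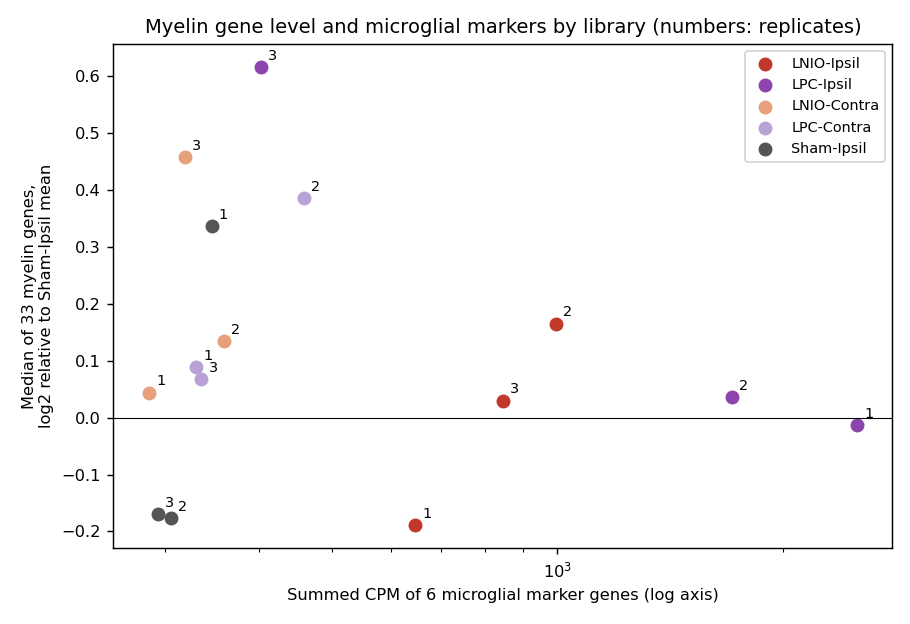
Points are the 15 libraries, coloured by group; the horizontal axis is the summed CPM of 6 microglia markers (log scale) and the vertical axis the median of the 33 members as log2 against the Sham-Ipsil mean. LPC-Ipsil replicates 1 and 2 lie far right at 2513 and 1712 CPM with medians near 0, and LPC-Ipsil replicate 3 lies at 402 CPM with the highest median, 0.62.

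After LPC, no member was lower than in sham by the test, and 1 of 33 was higher. Each comparison used edgeR's quasi-likelihood test over all 16795 genes, and genes were called at an adjusted p (Benjamini-Hochberg) under 0.05. Between LPC-Ipsil and Sham-Ipsil that rule called 5.19% of all genes, 4.19% as higher and 0.994% as lower. The 1 member called is 3.03% of the list, so members were not called more often than other genes. At an unadjusted p under 0.05 the members were 2 of 33 (6.06%), against 20.2% of all genes. The median member stood at a log2 fold change of 0.18, against 0.01 for all tested genes, and 26 of 33 were positive, against 51.4% of all genes. Without LPC-Ipsil replicate 3 the median member stood at -0.02, and without Sham-Ipsil replicate 1 it stood at 0.43, so these libraries decide its size and its sign.

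The called member was Sirt2, a tubulin deacetylase abundant in the cytoplasm of myelin. Sirt2 had 242, 300.4 and 224 CPM in LNIO-Ipsil, 327, 303 and 365 CPM in LPC-Ipsil, 255, 245 and 253 CPM in LNIO-Contra, 224, 293 and 225 CPM in LPC-Contra, and 273, 200.2 and 196 CPM in Sham-Ipsil. All 3 LPC-Ipsil libraries lay above all 3 Sham-Ipsil libraries and above all 3 LPC-Contra libraries. Sirt2 averaged 332 ± 31.3 CPM in LPC-Ipsil and 223 ± 43.2 CPM in Sham-Ipsil (SD, n = 3 each), a log2 fold change of 0.57 ± 0.16 (SE) with a 95% interval of 0.24 to 0.91 and an edgeR adjusted p of 0.0495. That call is at the threshold: over the other settings and the omission of single or paired libraries the edgeR, DESeq2 or limma adjusted p ran from 0.0142 to 0.186, and the log2 fold change from 0.49 to 0.74. Against LPC-Contra the Sirt2 log2 fold change was 0.42 ± 0.16 (edgeR adjusted p = 0.245), and LNIO-Ipsil against LPC-Ipsil gave -0.38 ± 0.16 (edgeR adjusted p = 0.56). Exons of Sirt2 and of Nfkbib on the opposite strand overlap by 42 bases in GENCODE M21, and whether the counting used strand is not given in the sources used here.

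**Figure D3:**
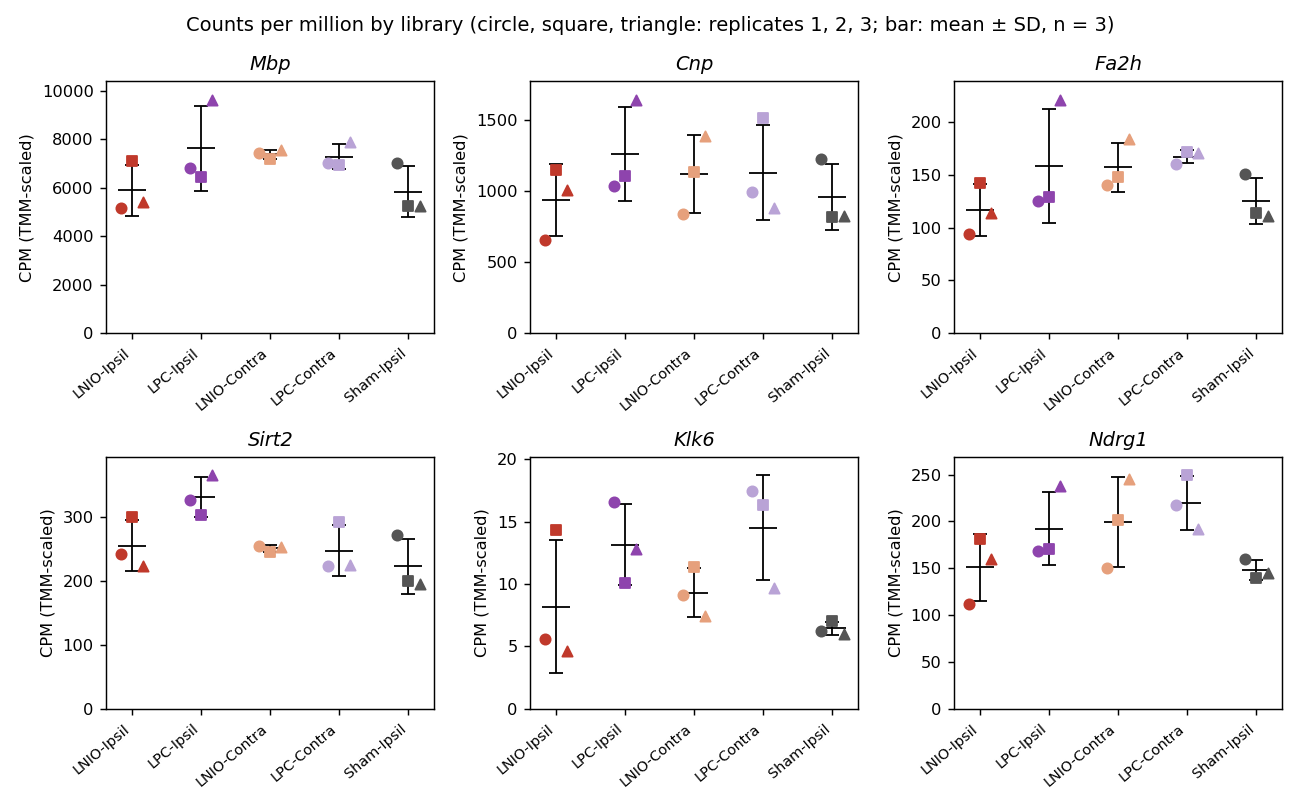
Each panel shows the CPM of 1 member (Mbp, Cnp, Fa2h, Sirt2, Klk6 and Ndrg1) in all 15 libraries, with a point per library and the group mean ± SD. Cnp overlaps between all groups; the 3 LPC-Ipsil libraries lie above the 3 Sham-Ipsil libraries for Sirt2, Klk6 and Ndrg1.

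Messages for the proteins of compact myelin did not pass the test in any comparison. The 3 given in full here were picked for their small unadjusted p, and none averaged lower at either injection site than in sham. The other 3, Mal, Pllp and Tspan2, had log2 fold changes of -0.08, -0.037 and -0.015 in LNIO-Ipsil against Sham-Ipsil. Mbp, which joins the cytoplasmic faces of the compact sheath, had 5158, 7107 and 5421 CPM in LNIO-Ipsil, 6808, 6424 and 9633 CPM in LPC-Ipsil, 7424, 7179.9 and 7555 CPM in LNIO-Contra, 7006, 6952 and 7870.0 CPM in LPC-Contra, and 7039, 5237 and 5245 CPM in Sham-Ipsil. The 2 injured groups overlap with sham, and every LNIO-Contra library lies above every LNIO-Ipsil library and every Sham-Ipsil library. Mbp stood at a log2 fold change of 0.38 ± 0.18 (SE) in LPC-Ipsil against Sham-Ipsil (edgeR adjusted p = 0.251), with a 95% interval of 0.998-fold to 1.71-fold. In LNIO-Ipsil against Sham-Ipsil it stood at 0.01 ± 0.18 (edgeR adjusted p = 0.992), with an interval of 0.773-fold to 1.32-fold. Mobp, another basic protein of compact myelin, had 3064, 3451 and 2733 CPM in LNIO-Ipsil, 3367, 3433 and 4545 CPM in LPC-Ipsil, 3972, 3407 and 3695 CPM in LNIO-Contra, 3235, 3969.8 and 3909.6 CPM in LPC-Contra, and 3794, 2354 and 2786 CPM in Sham-Ipsil. Sham-Ipsil ran from 2354 to 3794 CPM and overlaps every other group, and the Mobp interval in LPC-Ipsil against Sham-Ipsil was 0.971-fold to 1.66-fold. Cldn11, the claudin of the tight junctions that seal central myelin, had 474, 700.3 and 595 CPM in LNIO-Ipsil, 652, 656 and 1039 CPM in LPC-Ipsil, 612, 658 and 949 CPM in LNIO-Contra, 577, 984 and 579 CPM in LPC-Contra, and 716, 469 and 503 CPM in Sham-Ipsil. Groups overlap throughout, with LPC-Ipsil replicate 3, LPC-Contra replicate 2 and LNIO-Contra replicate 3 as the high points. The raft proteolipids Mal and Pllp and the tetraspanin Tspan2 complete these 6 genes, whose log2 fold changes ran from 0.00 to 0.48 in LPC-Ipsil and from -0.08 to 0.07 in LNIO-Ipsil, both against Sham-Ipsil. The LPC-Ipsil range includes replicate 3, the highest of all libraries for Mal and Tspan2, and is not given without it.

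Mog, an immunoglobulin-like protein of the outermost lamella, Mag, the sialic acid-binding adhesion molecule that faces the axon, and Cntn2, which holds the membrane at the juxtaparanode, did not pass the test in any comparison. Hapln2, a hyaluronan link protein of the matrix at nodes, had 46.9, 67.5 and 50.2 CPM in LNIO-Ipsil, 51.3, 56.1 and 82.2 CPM in LPC-Ipsil, 64.5, 67.2 and 64.5 CPM in LNIO-Contra, 74.7, 57.4 and 63.5 CPM in LPC-Contra, and 57.3, 50.2 and 45.8 CPM in Sham-Ipsil. Both contralateral groups lay above all Sham-Ipsil libraries, with a log2 fold change of 0.36 ± 0.18 (SE) in LNIO-Contra (edgeR adjusted p = 1) and 0.35 ± 0.18 in LPC-Contra (edgeR adjusted p = 0.534). Opalin, a transmembrane sialoglycoprotein of central myelin, and Ninj2, an adhesion molecule, had the widest intervals on the low side. Opalin had 75.5, 76.3 and 152 CPM in LPC-Ipsil and 181, 88.2 and 100.2 CPM in Sham-Ipsil, so LPC-Ipsil replicates 1 and 2 were below all 3 sham libraries and replicate 3 was not. Its log2 fold change was -0.29 ± 0.34 (SE; 95% interval -1.03 to 0.46). Ninj2 had 1.75, 1.32 and 3.08 CPM in LPC-Ipsil and 7.59, 1.89 and 1.11 CPM in Sham-Ipsil, where 1 sham library holds the high value (-0.79 ± 0.61, interval -2.08 to 0.51).

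Enzymes of myelin lipid and small-molecule metabolism showed no call. Ugt8a makes galactosylceramide, Gal3st1 turns it into sulfatide, Fa2h hydroxylates the fatty acids of these lipids, Aspa splits N-acetylaspartate, Car2 is a carbonic anhydrase and Qdpr regenerates tetrahydrobiopterin. Gal3st1 had 16.4, 26.8 and 19.9 CPM in LNIO-Ipsil, 27.8, 25.5 and 33.9 CPM in LPC-Ipsil, 25.1, 24.5 and 33.7 CPM in LNIO-Contra, 24.5, 32.6 and 27.9 CPM in LPC-Contra, and 29.4, 24.3 and 21.5 CPM in Sham-Ipsil. LNIO-Ipsil held the 2 lowest libraries, and LNIO-Ipsil against LPC-Ipsil gave -0.46 ± 0.19 (SE; edgeR adjusted p = 0.56). Fa2h had 93.5, 143 and 113 CPM in LNIO-Ipsil, 125, 129 and 221 CPM in LPC-Ipsil, 140.2, 148 and 184 CPM in LNIO-Contra, 160.1, 171 and 170.1 CPM in LPC-Contra, and 151, 114 and 111 CPM in Sham-Ipsil. All LPC-Contra libraries exceeded all sham libraries (0.42 ± 0.21, edgeR adjusted p = 0.535). Aspa had 46.7, 61.4 and 86.8 CPM in LPC-Ipsil and 124, 56.9 and 63.2 CPM in Sham-Ipsil, where 1 sham library is the highest of the 6 (interval 0.495-fold to 1.28-fold). The 2 connexins of oligodendrocyte gap junctions, Gjb1 and Gjc3, stood at log2 fold changes of 0.27 and 0.14 in LPC-Ipsil and -0.13 and 0.06 in LNIO-Ipsil, both against Sham-Ipsil, with no call. The LPC-Ipsil values include replicate 3, the highest of all libraries for Gjc3.

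Among cytoskeletal members only Sirt2, given above, was called. Cnp, which keeps cytoplasmic channels open within the sheath, had 655, 1148 and 1003 CPM in LNIO-Ipsil, 1034, 1102 and 1639.8 CPM in LPC-Ipsil, 840.1, 1134 and 1388 CPM in LNIO-Contra, 992, 1509 and 882 CPM in LPC-Contra, and 1221, 817 and 823 CPM in Sham-Ipsil. The groups overlap, and the lowest and the highest library both come from injured tissue. Ermn, an actin-binding protein, and Tppp, which bundles microtubules, were highest in Sham-Ipsil replicate 1, at 444 and 882 CPM.

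Regulators and receptors had no call in any comparison. Nkx6-2 is a homeobox factor of maturing oligodendrocytes, Gpr37 an orphan receptor known in mice to restrain their differentiation, Ndrg1 a gene whose loss causes a demyelinating neuropathy in humans, and Plekhb1 a pleckstrin homology domain protein. Ndrg1 had 112, 181 and 160.1 CPM in LNIO-Ipsil, 168, 171 and 238 CPM in LPC-Ipsil, 150.4, 202 and 246 CPM in LNIO-Contra, 218, 249 and 192 CPM in LPC-Contra, and 160.3, 140.0 and 145 CPM in Sham-Ipsil. Both LPC groups lay above all sham libraries, with a log2 fold change of 0.38 ± 0.20 (SE) in LPC-Ipsil (edgeR adjusted p = 0.323) and 0.57 ± 0.20 in LPC-Contra (edgeR adjusted p = 0.492). Plekhb1 had 585, 649 and 533 CPM in LNIO-Ipsil, 597, 516 and 761 CPM in LPC-Ipsil, 739, 665 and 725 CPM in LNIO-Contra, 609, 758 and 609 CPM in LPC-Contra, and 665, 514 and 549.7 CPM in Sham-Ipsil. Every LNIO-Ipsil library was below every LNIO-Contra library.

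Klk6, a secreted serine protease of oligodendrocytes, had the largest log2 fold change of the list. Klk6 had 5.63, 14.3 and 4.61 CPM in LNIO-Ipsil, 16.5, 10.1 and 12.8 CPM in LPC-Ipsil, 9.15, 11.3 and 7.44 CPM in LNIO-Contra, 17.5, 16.3 and 9.72 CPM in LPC-Contra, and 6.28, 7.03 and 6.04 CPM in Sham-Ipsil. All libraries of LPC-Ipsil, LNIO-Contra and LPC-Contra lay above all sham libraries, and LNIO-Ipsil had 1 library above and 2 below them. Klk6 averaged 13.1 ± 3.25 CPM in LPC-Ipsil, 14.5 ± 4.19 CPM in LPC-Contra and 6.45 ± 0.52 CPM in Sham-Ipsil (SD, n = 3 each). Its log2 fold change was 1.03 ± 0.36 (SE) in LPC-Ipsil (edgeR adjusted p = 0.123) and 1.17 ± 0.36 in LPC-Contra (edgeR adjusted p = 0.492), so neither passed. Apod, a lipocalin, had 153, 152 and 138 CPM in LNIO-Ipsil, 128, 136 and 158 CPM in LPC-Ipsil, 136, 149 and 156 CPM in LNIO-Contra, 171, 177 and 150.5 CPM in LPC-Contra, and 170.2, 108 and 139 CPM in Sham-Ipsil. The groups overlap. The small heat shock protein Cryab had no call.

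The membrane protein Tmem88b had 145, 188 and 182 CPM in LNIO-Ipsil, 191, 193 and 306 CPM in LPC-Ipsil, 201, 183 and 279.8 CPM in LNIO-Contra, 227, 218 and 233 CPM in LPC-Contra, and 232, 170.1 and 179.7 CPM in Sham-Ipsil. Every LNIO-Ipsil library was below every LPC-Ipsil library (-0.42 ± 0.20, SE; edgeR adjusted p = 0.597). Evi2a had no call.

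**Figure D4:**
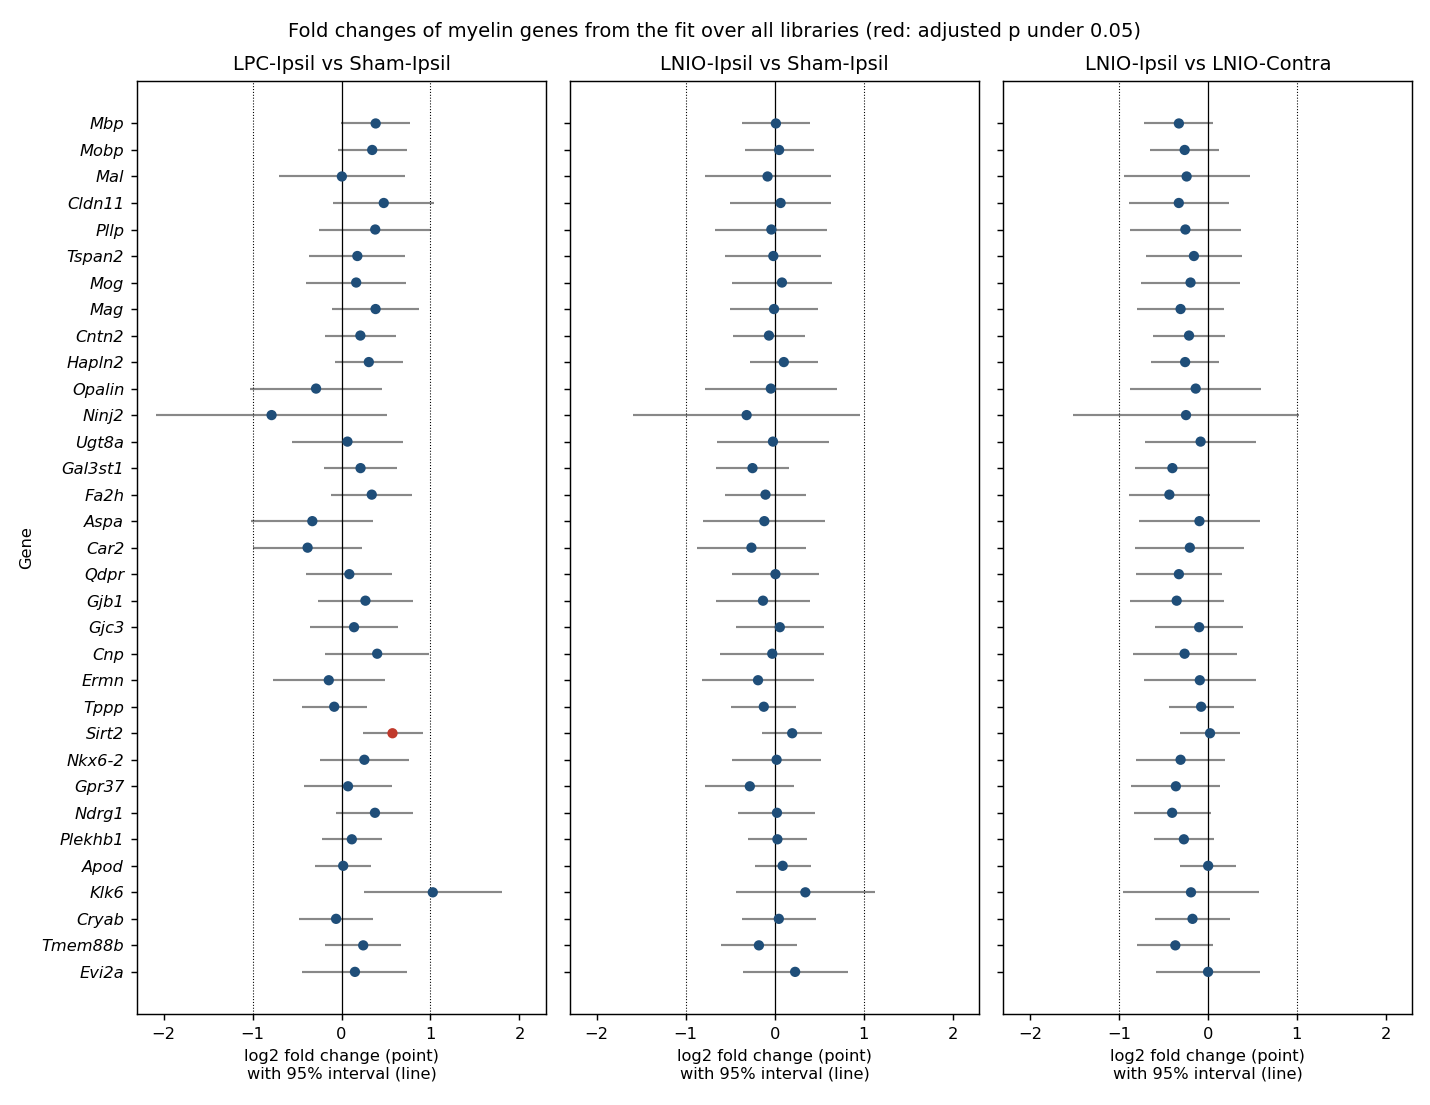
Points are log2 fold changes of the 33 members and bars their 95% intervals, for LPC-Ipsil against Sham-Ipsil, LNIO-Ipsil against Sham-Ipsil and LNIO-Ipsil against LNIO-Contra. In LNIO-Ipsil against Sham-Ipsil the points lie between -0.32 and 0.35, and in LPC-Ipsil against Sham-Ipsil between -0.79 (Ninj2) and 1.03 (Klk6).

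Few members stood without overlap against Sham-Ipsil, and at both injection sites their share was smaller than that of all genes. LPC-Ipsil lay wholly above Sham-Ipsil for 3 members (Sirt2, Ndrg1 and Klk6; 9.09%), against 14% of all genes, and wholly below it for 0 members, against 13.5%. Without LPC-Ipsil replicate 3 it lay above for the same 3 members (9.09%), against 26% of all genes, and below for 2, Opalin and Car2 (6.06%), against 21.2%. LPC-Contra lay above Sham-Ipsil for 4 members (Hapln2, Fa2h, Ndrg1 and Klk6; 12.1%), against 7.06%, and LNIO-Contra for 3 (Mbp, Hapln2 and Klk6; 9.09%), against 5.01%. Neither contralateral group lay wholly below Sham-Ipsil for any member, against 8.07% of all genes in LPC-Contra and 5.13% in LNIO-Contra. LNIO-Ipsil separated from Sham-Ipsil for 0 members, against 10.1% of genes above and 7.86% below.

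At the L-NIO site no fall or rise of these messages against sham was detectable with 3 libraries a group. Of 33 members 0 were called (0% of all genes were called), 0 had an unadjusted p under 0.05 (8.87% of all genes did), and DESeq2 called 0 members and 236 genes. The median member stood at -0.02, as did the median of all tested genes at -0.02, and 15 of 33 members were positive. The 95% interval lay wholly above -1, a fall to 0.5-fold, for 32 of 33 members in LNIO-Ipsil and for 30 of 33 in LPC-Ipsil, both against Sham-Ipsil. The exceptions were Ninj2 in both and Opalin and Aspa in LPC-Ipsil. All libraries, LPC-Ipsil replicate 3 among them, were kept for these counts. The median distance from a fold change to the end of its interval was 0.50 on the log2 scale, so differences smaller than that are mostly beyond what 3 libraries a group can show.

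Set against its own contralateral side, LNIO-Ipsil had lower values for most members, none of them called. The log2 fold change was negative for 30 of 33 members, the exceptions being Sirt2, Apod and Evi2a, and the median was -0.24, against -0.02 for all tested genes. Over the omission of single libraries that median ran from -0.35 (without LNIO-Ipsil replicate 2) to -0.12 (without LNIO-Ipsil replicate 1 or LNIO-Contra replicate 3). By role the medians were -0.26 for compaction, -0.23 for surface, -0.26 for metabolism, -0.22 for gap junctions, -0.08 for the cytoskeleton and -0.33 for regulators. For the secreted and stress-linked members, Apod among them, the median was -0.17. For the other membrane proteins, Evi2a among them, it was -0.18. Both Mbp (-0.33 ± 0.18, SE; edgeR adjusted p = 0.95) and Plekhb1 (-0.27 ± 0.16; edgeR adjusted p = 0.975) had no overlap between the sides, which makes 2 of 33 members (6.06%) lower, against 5.24% of all genes, and 0 members higher, against 7.91%. edgeR called 0% of all genes in that comparison, while 6.08% of all genes and 0 members had an unadjusted p under 0.05.

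Libraries of the same number deviated together in the L-NIO model, so the sides were also read pair by pair. The labels do not say that these libraries come from the same mouse, and the pairing was read from these same data. The correlation was 0.62 in pair 1, 0.374 in pair 2 and 0.238 in pair 3. Between libraries of different models it reached 0.371, so only pair 1 stood clear of that value and the pairing is not firm. Lower in LNIO-Ipsil in 3 of 3 pairs were 18 of 33 members (54.5%), against 17.7% of all tested genes, and 0 members were higher in 3 of 3. The median member stood at -0.25 in pair 1, -0.03 in pair 2 and -0.36 in pair 3, so pair 2 carried little of it. With the pair as a block, 2 members had an unadjusted p under 0.05, Fa2h at -0.44 ± 0.18 (SE; edgeR adjusted p = 0.635) and Ndrg1 at -0.40 ± 0.17 (edgeR adjusted p = 0.666). Those 2 are 6.06% of the list, against 7.26% of all genes. Because the 33 members share each library, they are not 33 separate observations of the shift. The 2 sides also differed in microglia markers, at 646 to 995 CPM in LNIO-Ipsil and 285 to 359 CPM in LNIO-Contra, and their part in the shift was not tested.

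The LPC sides were more even as long as all libraries were kept. LPC-Ipsil against LPC-Contra had 16 of 33 members positive and a median of -0.02, against 0.01 for all genes, and 1 member with an unadjusted p under 0.05 (Sirt2), against 12.1% of all genes. LPC-Ipsil lay wholly above LPC-Contra for Sirt2 (1 of 33, 3.03%), against 7.06% of all genes, and wholly below it for 0 members, against 6.59%. Without LPC-Ipsil replicate 3 the median member stood at -0.23, and 13 members lay wholly below LPC-Contra (39.4%), Mbp, Fa2h and Hapln2 among them, against 11.9% of all genes; 1 lay above (Sirt2), against 16.9%. With that library left out edgeR called 0 members and 948 genes in all between the LPC sides. The difference between the models' side effects, taken as an interaction of model and side, had a median of -0.20 over members and 0 members called (0% of all genes). Without LPC-Ipsil replicate 3 that median was 0.02, so whether the models differ in how the injured side stands to the other side rests on 1 library.

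LNIO-Ipsil against LPC-Ipsil had 26 of 33 members negative, a median of -0.20, against -0.04 for all genes, and 0 members called (0% of all genes). Gal3st1 and Sirt2 had an unadjusted p under 0.05 (6.06%), against 8.39% of all genes, and Sirt2 and Tmem88b lay wholly lower (6.06%), against 7.61%, with 0 members wholly higher, against 6.07%. Without LPC-Ipsil replicate 3 the median member stood at 0.03, 4 members lay wholly higher (Opalin, Car2, Ermn and Apod; 12.1%), against 13.4%, and 2 wholly lower (6.06%), against 21.2%. The contralateral sides stood above sham in most members, 28 of 33 in LNIO-Contra (median 0.21; edgeR called 0% of all genes) and 23 of 33 in LPC-Contra (median 0.19; edgeR called 0.00595% of all genes), with 0 members called in either. At an unadjusted p under 0.05 were 0 members in LNIO-Contra, against 2.72% of all genes, and 2 in LPC-Contra (Klk6 and Ndrg1), against 9.67%. Without LNIO-Contra replicate 3 the median against Sham-Ipsil was 0.03, and without LPC-Contra replicate 2 it was 0.04. These comparisons share the 3 Sham-Ipsil libraries, and without Sham-Ipsil replicate 1 the medians were 0.48 and 0.44. Between LNIO-Contra and LPC-Contra the median was 0.02, with 0 members called (0% of all genes), 0 members at an unadjusted p under 0.05, against 3.43% of all genes, and 0 members without overlap, against 3.88% of genes above and 4.67% below.

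LPC-Contra replicate 2 differed from its group in another way. Across the 33 members, the deviation from the mean of all libraries ran with gene length at a rank correlation of -0.60 in that library, so shorter members were higher there, and at -0.50 across all tested genes. In the other 14 libraries the correlation over members lay between -0.26 and 0.28, with 0.27 in LPC-Ipsil replicate 3. Pllp, at 2216 bases, had 24.6 CPM in LPC-Contra replicate 2 and 10.3 and 14.8 CPM in the other LPC-Contra libraries, while Cntn2, at 9900 bases, had 270.2 CPM there and 359 and 358 CPM in the others. These are correlations across genes of 1 library, which share its depth, and genes are not replicates.

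**Figure D5:**
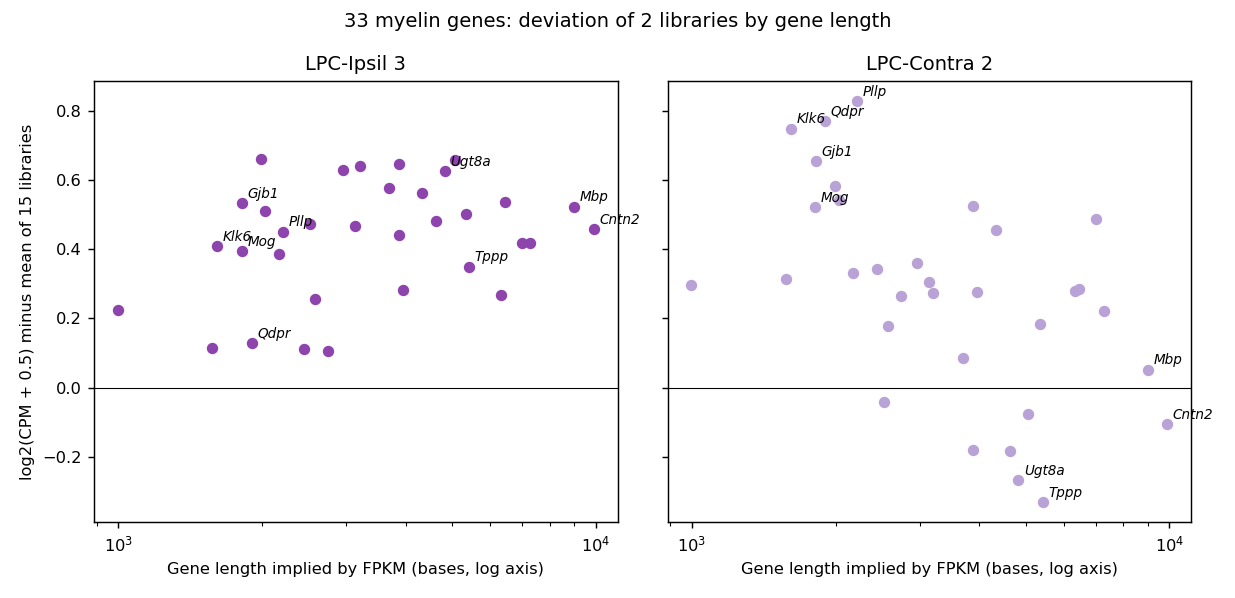
Each point is a member; the horizontal axis is gene length in bases (log scale), implied by the deposited counts and FPKM, and the vertical axis the log2 deviation from the member's mean over 15 libraries, in LPC-Ipsil replicate 3 and LPC-Contra replicate 2. Points fall with length in LPC-Contra replicate 2 (rank correlation -0.60) and do not in LPC-Ipsil replicate 3 (0.27).

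Genes around the list gave a few calls, all in LPC-Ipsil against Sham-Ipsil, where edgeR made nearly all of its calls over the 9 comparisons. Of 24 tested other myelin and oligodendrocyte genes, 2 were called higher, against 4.19% of all genes, and 0 lower, against 0.994% (median log2 fold change 0.34). Gltp, which moves glycolipids between membranes, had 125, 99.2 and 112 CPM in LPC-Ipsil and 72.0, 54.6 and 52.0 CPM in Sham-Ipsil, without overlap (0.91 ± 0.17, SE; edgeR adjusted p = 0.0243). Pmp22, a peripheral myelin protein that many other cells also make, had 81.4, 63.5 and 38.4 CPM in LPC-Ipsil and 40.1, 29.6 and 34.6 CPM in Sham-Ipsil, so LPC-Ipsil replicate 3 lay within the sham range (0.81 ± 0.22; edgeR adjusted p = 0.0442). Of 14 regulators of myelination 0 were called, though 6 had an unadjusted p under 0.05, against 20.2% of all genes, and the median was 0.41. Closest to the threshold were Tcf7l2 at 0.61 ± 0.18 and Olig1 at 0.62 ± 0.19, factors of the oligodendrocyte lineage (edgeR adjusted p = 0.07 and 0.0728). Of 12 sphingolipid genes and 13 paranode, node and axon partners 0 were called, with medians of 0.25 and -0.17. In the other 8 comparisons 0 genes of these 4 lists were called. In each of those 8 edgeR called at most 0.00595% of all genes, so these counts do not set the comparisons apart.

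Some markers of earlier stages of the lineage were called higher at the LPC site. Like the calls of the genes around the list, these calls are not firm. With any single Sham-Ipsil library left out, or LPC-Ipsil replicate 1 or 2, almost no gene was called in that comparison. Of 5 tested markers of newly forming oligodendrocytes 2 rose, against 4.19% of all genes called higher in that comparison. They were Gpr17, a receptor of cells about to differentiate, and Itpr2, a calcium channel of the endoplasmic reticulum. Gpr17 had 250.4, 183 and 188 CPM in LPC-Ipsil and 139.7, 97.6 and 95 CPM in Sham-Ipsil, without overlap. Itpr2 had 49.4, 58.9 and 47.2 CPM in LPC-Ipsil and 32.5, 29.5 and 25.7 CPM in Sham-Ipsil, again without overlap. Microglia markers moved with the same comparison, and their part in these values was not tested. Of 6 precursor markers 2 were called higher, against the same 4.19%. In LNIO-Ipsil against Sham-Ipsil 0 markers of either stage were called, as were 0% of all genes, so that count does not set the 2 models apart. All 6 microglia markers were called higher in LPC-Ipsil against Sham-Ipsil, as were 5 of 6 damage-associated microglia markers and 1 of 6 astrocyte markers (Aldh1l1). Of the neuronal markers 1 of 8 (Nefl) and of the cortical excitatory neuron markers 1 of 4 (Neurod6) were called lower there, against 0.994% of all genes. In any comparison 0 markers of striatal neurons, endothelium, Schwann cells, fibroblasts and choroid plexus were called. Outside LPC-Ipsil against Sham-Ipsil at most 0.00595% of all genes were called in a comparison.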

How the data were processed

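RNA of mouse corpus callosum had been extracted with TRIzol, depleted of ribosomal RNA, purified for poly(A) and sequenced in read pairs on an Illumina instrument, per the labels' protocols. The authors deposited whole-number counts per gene symbol and FPKM values, which scale the authors' counts by library total and gene length. Per the submitters' processing notes, reads were handled with HISAT2 2.2.1 and R 4.4.2 on GRCm39. How reads were counted, with which annotation and whether by strand, is not given in the sources used here. Tspan2, Cnp, Ermn, Sirt2, Nkx6-2 and Cryab share 42 to 252 exon bases with a gene on the opposite strand in GENCODE M21 and are uncertain for that reason. Both tables carry 74 repeated symbols, none of them a member, and 0 columns were left unmatched.

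The test was edgeR's (4.0.16, R 4.3.3) robust quasi-likelihood test, with TMM factors of 0.966 to 1.059. Genes were kept by filterByExpr (count of 10, total of 15). All 15 libraries entered a single fit with 5 group means (common dispersion 0.0453), and p-values were adjusted over 16795 genes. Totals ran from 14896445 to 20916606 counts. The SE is the size of the fold change over the square root of F, and 95% intervals use the fit's total degrees of freedom. Library deviations use log2 of CPM plus 0.5. DESeq2 1.42.0, limma 3.58.1 on log2(FPKM + 1), median-of-ratios factors, no filter, fits of the compared groups alone, a replicate block and the omission of libraries were tried as alternatives. The edgeR script was tested on simulated data.

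Values in every library are given for called members and then for those with the smallest unadjusted p, 12 in all, and for others as ranges; values of Cnp, Opalin, Ninj2, Aspa, Pllp, Cntn2, Gpr17 and Itpr2 were chosen after they were seen. From each surrounding list at most 4 genes with the smallest adjusted p are named. The members and all lists were chosen with earlier results of these data known. Replicate numbers were taken to pair the L-NIO sides, though the labels name no pairs. Deviations from group means of same-numbered libraries correlated at 0.62, 0.374 and 0.238. The highest value between differently numbered libraries of the 2 L-NIO sides was 0.203 (LNIO-Ipsil replicate 3, LNIO-Contra replicate 2). Between libraries of different models it was 0.371 (LPC-Contra replicate 2, LNIO-Contra replicate 3), so pair 3 is not firm and pair 2 barely exceeded that value. Chi-square per degree of freedom between replicates of a group ran from 10.1 to 63.7, above sampling noise in every pair.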

Additional observations from a re-analysis of the deposited data

How the results depend on the processing

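The count of called members in LPC-Ipsil against Sham-Ipsil, 1 (Sirt2), became 0 with median-of-ratios factors, without the filter, with limma on FPKM, with the compared groups alone and with the replicate block, where adjusted p of Sirt2 was 0.0575, 0.0722, 0.0682, 0.137 and 0.0703. Leaving out single libraries of these groups gave 0 to 0 members called (Sirt2 adjusted p 0.0649 to 0.186). DESeq2 (0.0142) called Sirt2, as did 2 omissions chosen after seeing the data, of LPC-Ipsil replicate 3 with LPC-Contra replicate 2 (0.0437) and with Sham-Ipsil replicate 1 (0.0278). The cause was not tested. Genes called in that comparison numbered 871, against 842, 524, 3, 0 and 652 under the first 5 settings, 1511 with DESeq2, and 0, 1 and 0 without Sham-Ipsil replicates 1, 2 and 3 and 0, 0 and 1660 without LPC-Ipsil replicates 1, 2 and 3. In the other 8 comparisons 0 members were called under any setting. DESeq2 called 236 genes in LNIO-Ipsil against Sham-Ipsil, 700 between the LPC sides and 175 between the L-NIO sides, where edgeR called 0, and the block gave 26 and 6 between these sides. The block changed no other member call. Outside the L-NIO sides numbers did not pair the libraries by the rule that every correlation exceed 0.1 (LPC sides -0.056, 0.161 and 0.336).

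No result changed sign while called. The median member ran, over single omissions, from -0.02 to 0.43 in LPC-Ipsil, -0.12 to 0.19 in LNIO-Ipsil, 0.03 to 0.48 in LNIO-Contra and 0.04 to 0.44 in LPC-Contra, all against Sham-Ipsil, and from -0.35 to -0.12 between the L-NIO sides, where it stayed negative. Library medians within a group had an SD of 0.253 on the log2 scale.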
